A study of Caenorhabditis elegans with 9 samples.

Results

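The cyclophilin genes cyn-1 to cyn-10 of Caenorhabditis elegans were followed in RNA of whole L2 larvae, in which 20389 genes were listed. The 10 genes were chosen by gene name, and all 10 were found. Their levels in these same larvae were known when they were chosen, so the levels and differences below are a description, and the test values are the authors' own, repeated beside them and used as support for nothing.

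The larvae were of 3 genotypes with 3 libraries each, 9 in all. The first was hsf-1(ok600), homozygous for ok600, which deletes part of hsf-1, the gene of the heat shock factor. Its larvae were picked as GFP-negative young from eggs of the strain OG576, whose animals hold the hT2 balancer of chromosomes I and III, marked with pmyo-2::gfp, ppes-10::gfp and pges-1::gfp, opposite ok600. The second was strain AM1061, hsf-1(ok600); rmSi1[hsf-1::gfp], which carries the same deletion allele and, besides it, an hsf-1::gfp transgene. The third was wild type, strain N2. The sources used here do not give the promoter of the transgene. A library held 500 larvae pooled from multiple collections at 30 h after a 2 h egg lay, the temperature was 20 °C, and no heat shock or other agent is named for any genotype.

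Levels are in FPKM (fragments per kilobase of transcript, scaled to library size), which allows for length. Levels of different genes are set side by side on that basis only. Other differences between genes in how their RNA was amplified and counted were not checked. The authors deposited 1 FPKM per gene and genotype with a lower and an upper bound, given here in brackets. The level of confidence of these bounds is not stated, no value per library was used, and the depth is unknown. The gene hsf-1 was at 21.4 FPKM (6.52 to 36.4) in hsf-1(ok600), 69.3 (29.4 to 109.1) in AM1061 and 25.3 (7.62 to 43.1) in N2. These values do not test the labels, because fragments from undeleted exons, and from the transgene, also count as hsf-1. Of the defining markers of intestine, body wall muscle, pharynx, epidermis, neurons and germ line, 23 of 24 were found, and all of those were above 0 FPKM in every genotype. Adult markers (vit-2, vit-6 and col-19) reached 1.74 FPKM at most.

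Cyclophilins are peptidyl-prolyl isomerases: they speed the turn of the peptide bond before a proline between its cis and trans forms, a slow step in the folding of many proteins, and the drug cyclosporin A binds in their active site. Some are small cytosolic enzymes of the cyclophilin A type, some enter the secretory pathway, where the proline-rich collagens of the worm cuticle are folded, and some are larger nuclear proteins that work with the splicing machinery. HSF-1 is the factor that turns on chaperone genes in heat shock, and it also acts in development without heat.

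In the WBcel235 annotation the predicted proteins of cyn-1, cyn-2, cyn-3, cyn-5, cyn-6, cyn-7 and cyn-10 had 192, 172, 173, 204, 201, 171 and 161 residues. Those of cyn-4, cyn-8 and cyn-9 were longer, with 523, 447 and 309 residues. Only cyn-8 and cyn-10 had more than 1 annotated transcript, with 2 each.

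Among these genes cyn-7 stood first in every genotype, and it was lower in the hsf-1(ok600) larvae than in AM1061 or N2, by a factor near 3. The gene cyn-2, of far lower level, was lower in hsf-1(ok600) and in AM1061 alike than in N2. Its intervals were apart only in AM1061 against N2. The remaining 8 had overlapping intervals in every comparison of 2 genotypes, as most genes did. Over all genes with at least 1 FPKM in either genotype, intervals were apart in 0.143% to 0.703% per comparison and direction. Overlap therefore does not show that a gene was unchanged.

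**Figure D1:**
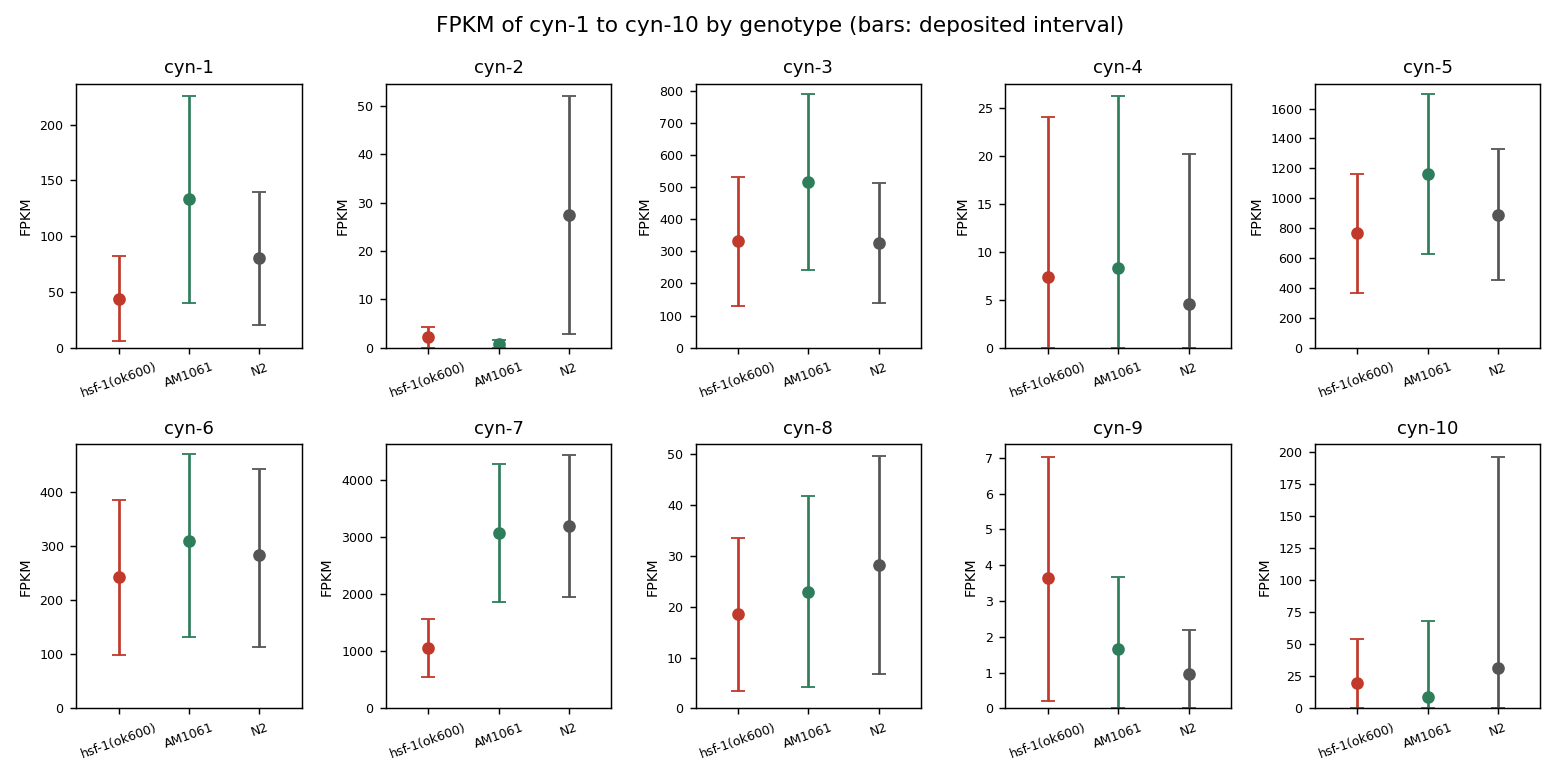
Level of each cyclophilin gene in FPKM (linear axis from 0, a scale of its own per gene) in hsf-1(ok600), AM1061 and N2 larvae. Points are the authors' value per genotype and bars their deposited interval, which for cyn-7 in hsf-1(ok600) lies wholly below those of AM1061 and N2.

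The cytosolic enzymes of the cyclophilin A type were cyn-7, cyn-3 and cyn-2. The gene cyn-7 (Y75B12B.2, ce10 chromosome V, 15186562 to 15187770) was at 1065 FPKM (559 to 1573) in hsf-1(ok600), 3081 (1871 to 4290.3) in AM1061 and 3193 (1947 to 4439) in N2. The mutant value was the low one and its interval was apart from both others, while AM1061 and N2 lay close together. It ranked 167 of all listed genes in hsf-1(ok600), 59 in AM1061 and 53 in N2. The log2 difference, taken of FPKM with a pseudocount of 1, was −1.58 for hsf-1(ok600) minus N2 and −1.53 for hsf-1(ok600) minus AM1061, or 3.00-fold and 2.89-fold lower as plain ratios. That of AM1061 minus N2 was −0.05. The authors' deposited table gives a q of 0.00249 for hsf-1(ok600) against N2. Fewer cells that use a gene and less RNA per cell cannot be told apart in RNA of whole larvae.

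The paralogue cyn-3 (Y75B12B.5) lies next to cyn-7 on chromosome V, at 15188428 to 15190910 in the files and on the opposite strand. Its level was 332 FPKM (131 to 533) in hsf-1(ok600), 516 (241 to 789.8) in AM1061 and 326 (140.4 to 512) in N2. The mutant and N2 values nearly coincided, AM1061 was the highest, and all 3 intervals overlapped. The log2 differences were 0.03 for hsf-1(ok600) minus N2, −0.63 for hsf-1(ok600) minus AM1061 and 0.66 for AM1061 minus N2. The files mark cyn-3 as LOWDATA, the word Cuffdiff writes for a locus too complex or too thinly covered to test, so the deposited p of 1 is no result. This mark is borne by 37 genes, and 6 of them had at least 100 FPKM in N2. How reads that match both cyn-3 and cyn-7 were assigned is not stated, so the split between these paralogues is uncertain.

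The gene cyn-2 (ZK520.5, chromosome III, 13692592 to 13693710) was at 2.15 FPKM (0 to 4.24) in hsf-1(ok600), 0.728 (0 to 1.57) in AM1061 and 27.5 (2.83 to 52) in N2. Here N2 was the high value, and the transgenic line was no nearer to it than the mutant was. The interval of AM1061 lay wholly below that of N2, whereas those of hsf-1(ok600) and N2 overlapped. Log2 differences were −3.18 for hsf-1(ok600) minus N2, −4.04 for AM1061 minus N2 and 0.87 for hsf-1(ok600) minus AM1061. As plain ratios cyn-2 was 12.8-fold lower in hsf-1(ok600) than in N2 and 37.8-fold lower in AM1061 than in N2. The authors' deposited table gives a q of 0.0403 for hsf-1(ok600) against N2. With 1 value per genotype, a single library that sets the N2 value could not be looked for, and that value's own bounds lie 89.5% from it.

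The loci beside cyn-2 and cyn-7 were read for comparison, a step added after their values were seen. On the left of cyn-2, the cullin gene cul-2 was at 47.1 FPKM (20.6 to 73.7) in hsf-1(ok600), 65 (29.4 to 100.6) in AM1061 and 63.2 (29.5 to 97) in N2. On its right, the Nemo-like kinase gene lit-1 was at 327 FPKM (192 to 461) in hsf-1(ok600), 342 (197 to 486) in AM1061 and 322 (187 to 458) in N2. The intervals of cul-2 and lit-1 overlapped in every comparison, but those of cyn-2 itself also overlapped in hsf-1(ok600) against N2. In AM1061 against N2, intervals were apart in only 0.143% (lower in AM1061) and 0.564% (higher) of genes past the FPKM minimum. Overlap in the neighbours therefore sets them apart from few genes, and a difference across the locus was not tested. Of the exon bases of cyn-2, 16 are also annotated as exon of cul-2, on the same strand. Beside cyn-7, Y75B12B.3 was at 18.7 FPKM (1.49 to 33.6) in hsf-1(ok600), 8.78 (0 to 17.5) in AM1061 and 8.22 (0.297 to 16) in N2.

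The secreted enzymes of the cyclophilin B type, cyn-5 and cyn-6, had overlapping intervals in all 3 genotypes. The gene cyn-5 (F31C3.1, chromosome I, 15036361 to 15041270) was at 764 FPKM (363 to 1164.5) in hsf-1(ok600), 1163 (626 to 1699.8) in AM1061 and 889 (452 to 1326) in N2. The gene cyn-6 (F42G9.2, chromosome III, 773398 to 774156) was at 243 FPKM (99.2 to 386) in hsf-1(ok600), 310.1 (132 to 470.5) in AM1061 and 284 (114.6 to 444) in N2. Both were highest in AM1061 and lowest in hsf-1(ok600), by margins well inside those intervals. For hsf-1(ok600) minus N2 the log2 differences were −0.22 for cyn-5 and −0.23 for cyn-6, and for AM1061 minus N2 they were 0.39 and 0.12. The q-values for hsf-1(ok600) against N2 in the authors' deposited table were 0.633 for cyn-5 and 0.681 for cyn-6.

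A single-domain gene of middle level was cyn-1 (Y49A3A.5, chromosome V, 14356058 to 14356808), with 44 FPKM (5.72 to 82.4) in hsf-1(ok600), 133 (40.4 to 226) in AM1061 and 80.1 (20.5 to 139.9) in N2. AM1061 was the highest and hsf-1(ok600) the lowest, and all 3 intervals overlapped. The log2 difference was −0.85 for hsf-1(ok600) minus N2, −1.57 for hsf-1(ok600) minus AM1061 and 0.72 for AM1061 minus N2. In the authors' deposited table its p for hsf-1(ok600) against N2 was 0.0459 and its q 0.246.

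The genes cyn-4, cyn-8, cyn-9 and cyn-10 stood low. The gene cyn-4 (F59E10.2, chromosome II, 10869128 to 10872551), also known as mog-6, encodes a nuclear U-box cyclophilin needed for the switch of the hermaphrodite germ line to oocytes. Its level was 7.4 FPKM (0 to 24.1) in hsf-1(ok600), 8.31 (0 to 26.2) in AM1061 and 4.53 (0 to 20.2) in N2. The gene cyn-10 (B0252.4, chromosome II, 6910027 to 6913321), related to the spliceosomal cyclophilin PPIL3 of human cells, was at 19.6 FPKM (0 to 54.2) in hsf-1(ok600), 9.02 (0 to 68) in AM1061 and 31.8 (0 to 196.4) in N2. For both, the lower bound was 0 in every genotype, so neither was distinguishable from an absent RNA within these bounds. The log2 difference for hsf-1(ok600) minus N2 was 0.60 for cyn-4 and −0.67 for cyn-10, and the authors' deposited table lists their q as 0.804 and 0.753.

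The gene cyn-8 (D1009.2, chromosome X, 8911239 to 8914332) was at 18.5 FPKM (3.35 to 33.6) in hsf-1(ok600), 23 (4.27 to 41.7) in AM1061 and 28.2 (6.82 to 49.7) in N2. The gene cyn-9 (T27D1.1, chromosome III, 3697801 to 3699624) was at 3.64 FPKM (0.21 to 7.02) in hsf-1(ok600), 1.66 (0 to 3.67) in AM1061 and 0.953 (0 to 2.2) in N2. In cyn-8 the mutant was the low genotype and in cyn-9 the high one, and the intervals overlapped throughout. Their log2 differences for hsf-1(ok600) minus N2 were −0.59 and 1.25, and the q-values in the authors' deposited table were 0.438 and 0.317. Since cyn-9 is close to 0, the pseudocount pulls its difference toward 0: its plain ratio was 3.82.

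The loci of cyn-3, cyn-4, cyn-5 and cyn-10 are shared with 1 other gene each in the files, and coordinates then span both genes. Exons of cyn-10 overlap those of the acid sphingomyelinase gene asm-1 by 120 bases, exons of cyn-5 those of gldr-2 by 64 and exons of cyn-4 those of the actin capping protein gene cap-2 by 49, each on the opposite strand, per the WBcel235 annotation. Reads there cannot be told apart without strand, and the strand setting of the counting is not stated. The gene cap-2 was at 157 FPKM (74.1 to 240.6) in hsf-1(ok600), 93.9 (37.8 to 150.01) in AM1061 and 83.8 (32 to 135.6) in N2, far above cyn-4, and its q for hsf-1(ok600) against N2 was 0.0337 (the authors' deposited table). The gene asm-1 was at 10.6 FPKM in hsf-1(ok600), 15.6 in AM1061 and 26.4 in N2. In cyn-3 no exon base is shared with its locus partner bath-36, which was at 11 FPKM in hsf-1(ok600), 1.61 in AM1061 and 2 in N2.

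The order of the levels shows how uneven the family is. In N2 it ran cyn-7, cyn-5, cyn-3, cyn-6, cyn-1, cyn-10, cyn-8, cyn-2, cyn-4 and cyn-9, and cyn-7 and cyn-5 were the only neighbours in this order whose intervals were apart. AM1061 had the same order of the first 5, again with only cyn-7 apart from its neighbour, and cyn-2 was last. The first 5 were the same in hsf-1(ok600), but there the intervals of cyn-7 and cyn-5 overlapped, those of cyn-6 and cyn-1 were apart, and cyn-2 was again last.

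The gene cyn-7 was the largest part of the summed level of the family in each genotype. The 10 genes summed to 2499 FPKM in hsf-1(ok600), 5245 in AM1061 and 4866 in N2. The share of cyn-7 in this sum was 42.6% in hsf-1(ok600), 58.7% in AM1061 and 65.6% in N2. The share of cyn-5 was 30.6% in hsf-1(ok600), 22.2% in AM1061 and 18.3% in N2. Without cyn-7 the sums were 1434 in hsf-1(ok600), 2164 in AM1061 and 1673 in N2. The ratio of hsf-1(ok600) to N2 was thus 0.514 for all 10 and 0.857 for the 9 others. That of hsf-1(ok600) to AM1061 was 0.477 and 0.663, and that of AM1061 to N2 was 1.08 and 1.29. Sums carry no interval here, because the deposited bounds are given per gene.

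**Figure D2:**
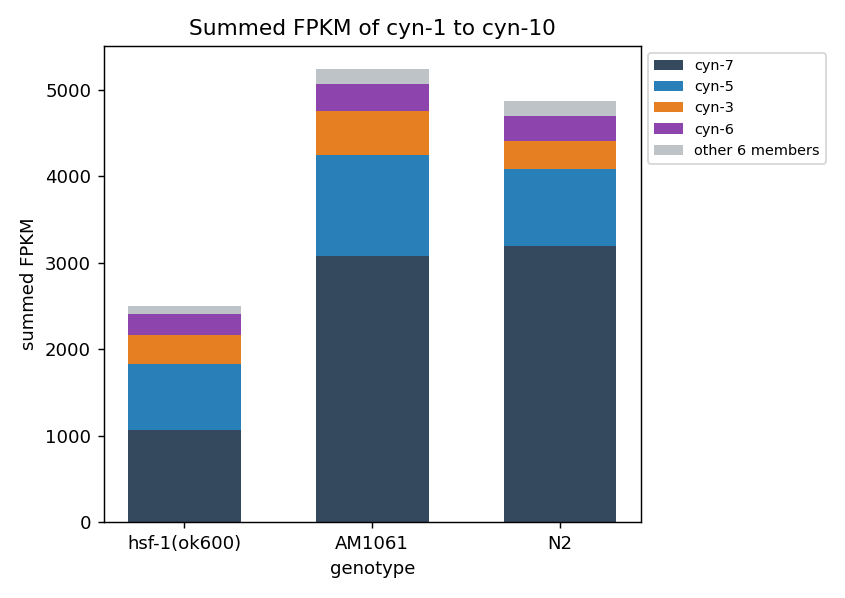
Summed FPKM of the 10 cyclophilin genes (linear axis from 0) in hsf-1(ok600), AM1061 and N2, stacked by gene, with the 6 genes of lowest level together. The sum is 2499 FPKM in hsf-1(ok600), 5245 in AM1061 and 4866 in N2, and the bottom block, cyn-7, is 1065 FPKM in hsf-1(ok600), 3081 in AM1061 and 3193 in N2.

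In the authors' deposited table, 9 of the 10 genes were tested for hsf-1(ok600) against N2. Called at a q of at most 0.05 with 1 FPKM or more in either genotype, 2 of the 9 were lower in hsf-1(ok600), cyn-2 and cyn-7, beside 2.90% of all 12615 genes tested, and 0 were higher, beside 2.93%. At an unadjusted p under 0.05 in the same table, 3 were lower (cyn-1, cyn-2 and cyn-7), beside 8.99% of all genes tested, and 0 higher, beside 10.5%. All 10 genes reached 1 FPKM in at least 1 genotype of each comparison. Of these 10, only cyn-7 was lower in hsf-1(ok600) than in N2 with intervals apart (background 0.265%) and 0 were higher (0.629%). Against AM1061, again only cyn-7 was lower in hsf-1(ok600) with intervals apart (background 0.680%) and 0 were higher (0.703%). In AM1061 against N2, only cyn-2 was lower (background 0.143%) and 0 were higher (0.564%). Comparisons pairwise share a genotype, so these counts do not stand apart from each other, and counts this small are read for no share of the family.

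Over the 10 genes the median log2 difference of hsf-1(ok600) minus N2 was −0.41, with 7 lower and 3 higher, against 0.15 over the 13205 genes past the FPKM minimum. For hsf-1(ok600) minus AM1061 it was −0.33, also with 7 lower and 3 higher, against 0.19. For AM1061 minus N2 it was 0.26, with 4 lower and 6 higher, against 0.00. Over the 6 genes with a locus of their own, a choice made after the values were seen, the median was −0.72 for hsf-1(ok600) minus N2, −0.33 for hsf-1(ok600) minus AM1061 and 0.04 for AM1061 minus N2. Against N2 the lowest differences of hsf-1(ok600) were those of cyn-2 and cyn-7, while against AM1061 they were those of cyn-1 (−1.57, or 3.02-fold lower, with overlapping intervals) and cyn-7.

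**Figure D3:**
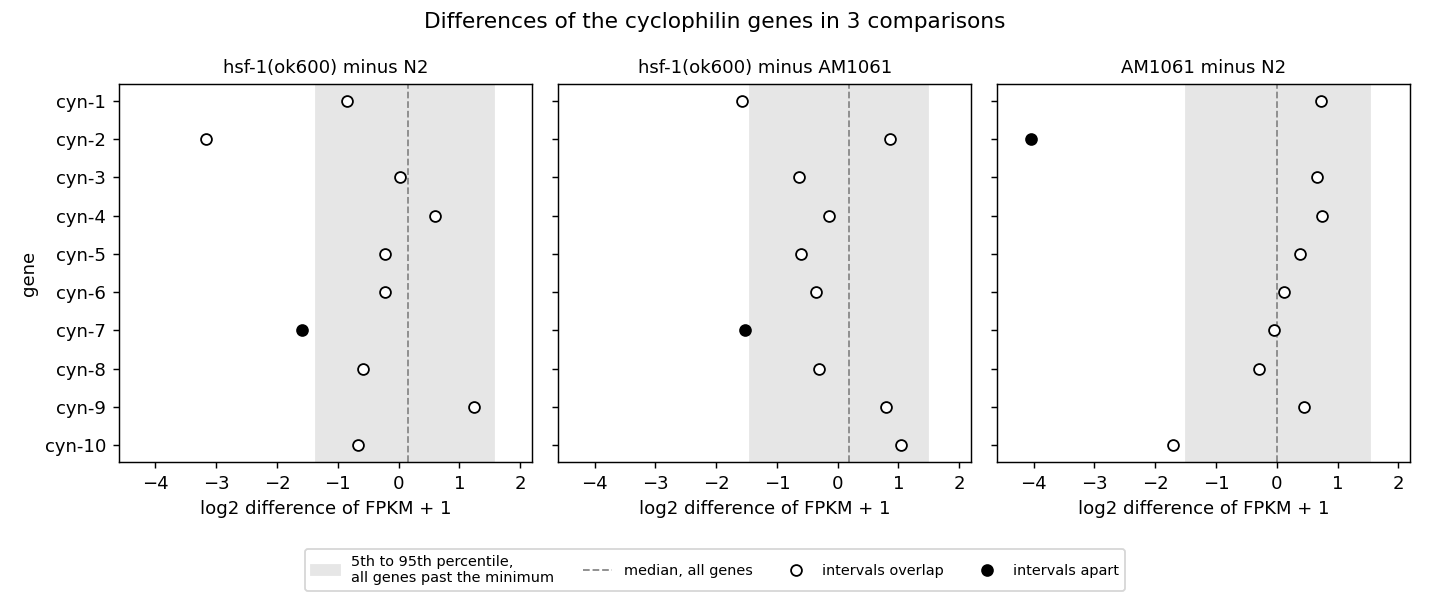
Log2 difference of FPKM + 1 for each cyclophilin gene in hsf-1(ok600) minus N2, hsf-1(ok600) minus AM1061 and AM1061 minus N2. Filled points have intervals apart, the grey band runs from the 5th to the 95th percentile of all genes past the FPKM minimum and the dashed line is their median; cyn-7 is filled in both mutant comparisons and cyn-2 in AM1061 minus N2, at −4.04.

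The other prolyl isomerases were listed by name: 7 further cyclophilins, 8 genes of the FKBP family, whose enzymes bind the drug FK506, and 2 parvulins. The 7 further cyclophilins were cyn-11 to cyn-17, with sig-7 in the place of cyn-14. In the authors' deposited table, 0 of them were called lower in hsf-1(ok600) than in N2, beside 2.90% of all genes tested. Likewise 0 were called higher, beside 2.93%, so 0 among 7 genes is near the share over all genes. At an unadjusted p under 0.05 in that table, 1 (cyn-17) was lower, beside 8.99% of all genes tested, and 0 were higher, beside 10.5%. Of the 8 FKBP genes, 2 were called lower, beside 2.90% of all genes tested, and 0 higher, beside 2.93%. The first, fkb-6 (F31D4.3), for an Hsp90 cochaperone, was at 47 FPKM (17.5 to 76.5) in hsf-1(ok600), 163 (82.1 to 244) in AM1061 and 149.8 (74.8 to 225) in N2. The second, fkb-5 (C50F2.6), was at 156 FPKM (58.7 to 254) in hsf-1(ok600), 340.3 (160.2 to 521) in AM1061 and 353 (157 to 548) in N2.

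In both FKBP genes hsf-1(ok600) was the lowest genotype and AM1061 lay near N2, as in cyn-7. Unlike in cyn-7, the intervals of hsf-1(ok600) and N2 overlapped in both, though in fkb-6 only between 74.8 and 76.5 FPKM. As plain ratios fkb-6 was 3.19-fold and fkb-5 2.26-fold lower in hsf-1(ok600) than in N2, beside 3.00-fold for cyn-7. Against AM1061, the interval of hsf-1(ok600) was apart in fkb-6 but overlapped in fkb-5. The authors' deposited table gives each the same q as cyn-7, 0.00249. Genes outside these families, such as the chaperonin subunit gene cct-2, have that q too, so it marks no likeness. At an unadjusted p under 0.05, 3 FKBP genes were lower, beside 8.99% of all genes tested, and 1 higher, beside 10.5%. Of the 2 parvulins, 0 were called in either direction (2.90% lower and 2.93% higher over all genes tested), also at an unadjusted p under 0.05. Median log2 differences of hsf-1(ok600) minus N2 were −0.39 for the further cyclophilins, −0.44 for the FKBP genes and −0.80 for the parvulins. Whether cyn-1 to cyn-10 differ from these lists was not tested.

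Over all 27 prolyl isomerase genes, cyn-7 and then cyn-5 had the highest level in each genotype. Summed, the 27 had 3911 FPKM in hsf-1(ok600), 7332 in AM1061 and 6932 in N2, of which cyn-7 made up 27.2% in hsf-1(ok600), 42% in AM1061 and 46.1% in N2. The 17 isomerases outside cyn-1 to cyn-10 summed to 1412 FPKM in hsf-1(ok600), 2087 in AM1061 and 2066 in N2.

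**Figure D4:**
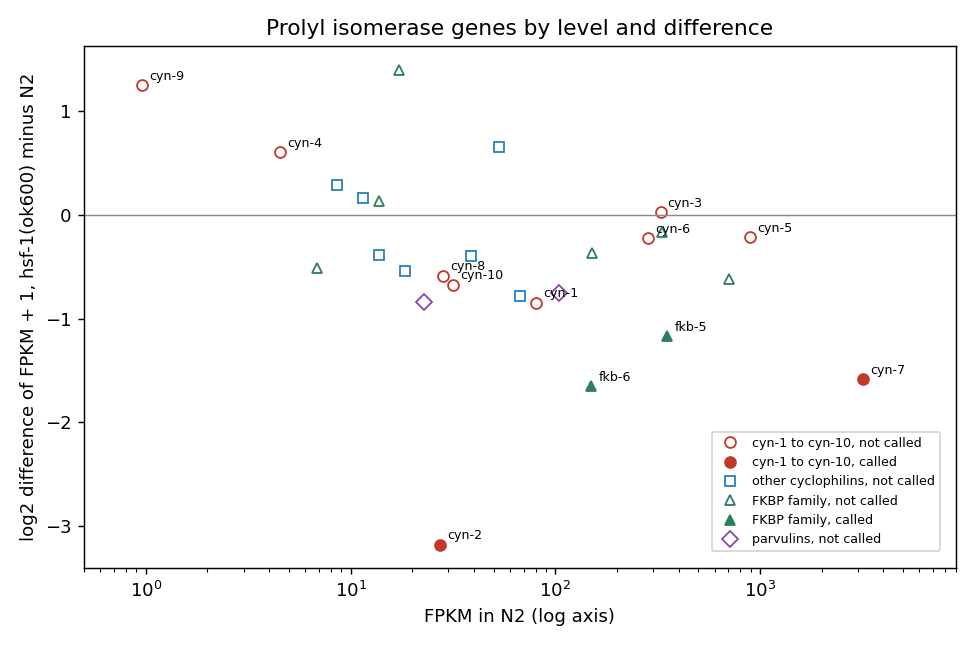
Log2 difference of FPKM + 1 for hsf-1(ok600) minus N2 against FPKM in N2 (log axis) for 27 prolyl isomerase genes, by family. Filled symbols were called at a q of at most 0.05 in the authors' deposited table: cyn-2 and cyn-7 at −3.18 and −1.58, and fkb-6 and fkb-5 at −1.65 and −1.17.

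Genes with the pattern most like that of cyn-7 were found by distance over the log2 ratios hsf-1(ok600) to N2 and AM1061 to N2, which rest on 3 genotypes, among 4025 tested genes with at least 20 FPKM in each. The nearest to cyn-7 (−1.58 and −0.05) were the chaperonin subunit gene cct-2 (−1.59 and −0.10), the U1 snRNP protein gene rnp-7 (−1.52 and −0.04) and hphd-1 of the propionate shunt (−1.63 and −0.15), at distances of 0.047, 0.064 and 0.109. No gene is named as near to cyn-2, which itself does not reach 20 FPKM in hsf-1(ok600) or AM1061.

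Markers of cell types varied between genotypes beside these values. Summed neuron markers (5 genes) were at 1384 FPKM in hsf-1(ok600), 943 in AM1061 and 839 in N2. Of these, 2 were called higher in hsf-1(ok600) than in N2 in the authors' deposited table. For this and the marker counts below, 2.90% of all 12615 genes tested were called lower and 2.93% higher. Summed epidermis markers (4 genes) were at 6352 FPKM in hsf-1(ok600), 6275 in AM1061 and 4461 in N2, with 1 called higher. The 4 intestine markers found summed to 1119.7 FPKM in hsf-1(ok600), 1554 in AM1061 and 1275 in N2, with 0 called. The 4 markers of body wall muscle summed to 2242 FPKM in hsf-1(ok600), 2388 in AM1061 and 2370.3 in N2, with 0 called. The 3 pharynx markers summed to 222 FPKM in hsf-1(ok600), 344 in AM1061 and 313 in N2, and the 3 germ line markers to 43.8 FPKM in hsf-1(ok600), 42.7 in AM1061 and 45.6 in N2, again with 0 called. The part of these shifts, and of any difference in developmental stage between genotypes, in the values of the cyclophilin genes was not tested.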

How the data were processed

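The 9 RNA-seq libraries of whole L2 larvae, 3 per genotype, were grouped by sample title. Per the labels' protocols, total RNA (Trizol, spin column, DNaseI) was amplified by SPIA (Nugen Ovation V2 kit). The FPKM values and their bounds are the authors' Cuffdiff output after TopHat2 on ce10, per the submitters' processing notes, which name no version or annotation. Per the file headers, the authors deposited 1 value per gene and genotype, and p-values, q-values and a test score (not used) for hsf-1(ok600) against N2 only. These deposited values took the place of the planned limma model on libraries. The labels do not say that libraries were separate cultures, so the p-values rest on libraries whose spread may be technical. How Cuffdiff modelled that spread is not stated.

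Members and lists were chosen with earlier results of these data known. Log2 differences (pseudocount 1), interval overlaps and calls were computed over the whole table with pandas 2.3.3, after tests on simulated data, and gene models came from Ensembl release 115 (WBcel235). Named are all 10 members, hsf-1, called genes among other isomerases, and the 3 genes nearest in pattern to cyn-7 (for cyn-2 the planned FPKM minimum leaves the search void). Locus neighbours and partners were added after values were seen. Alternatives changed the pseudocount, FPKM minimum, q threshold, centring, adjustment, fold minimum and source table. A planned promoter search for heat shock elements was not done here.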

Additional observations from a re-analysis of the deposited data

How the results depend on the processing

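Of 96 alternative values computed for the cyclophilin genes, 91 kept their side of the threshold or, for values with no test, stayed within 1.5 times the reported value or within 0.1 on the log2 scale. The count of members lower in hsf-1(ok600) than in N2 was 1 (cyn-7) at a q of at most 0.01 in place of 2. Over members with a locus of their own, a choice made after seeing the data, the median log2 difference was −0.72 in place of −0.41 for hsf-1(ok600) minus N2 and 0.0365 in place of 0.26 for AM1061 minus N2. A pseudocount of 0.1 gave 1.44 in place of 0.87 for cyn-2 in hsf-1(ok600) minus AM1061, and 0.74 in place of 0.45 for cyn-9 in AM1061 minus N2. With no FPKM minimum, a minimum of 5, a minimum change of 1 on the log2 scale or a Benjamini-Hochberg adjustment of the deposited p, cyn-2 and cyn-7 were called and no other member. All members had passed the minimum of 1, and cyn-2 and cyn-7 exceed 5 FPKM in N2, so changing the minimum could not alter these calls. None of the 70 alternative values of single members changed sign under a pseudocount of 0.1, centring or the FPKM of the deposited test table. Centring on the median difference over all genes was not among them. For hsf-1(ok600) minus N2 that median, 0.15, is larger than the difference of cyn-3, 0.03. The shift that centring subtracted from each difference was −0.02 for hsf-1(ok600) minus N2, −0.07 for hsf-1(ok600) minus AM1061 and 0.05 for AM1061 minus N2. Each shift is smaller than the 0.1 allowed, so centring could not move a value past it. The count of 91 thus includes values that could not have changed. No paired analysis was possible because the tables hold 1 value per genotype, and for the same reason no replicate could be left out in turn. What limits these results is the width of the deposited intervals, whose bounds lay 39.0% to 47.6% of the value away from it in cyn-7, but 89.5% to 108% in cyn-2, and the depth is unknown.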

Other observations

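Among the other prolyl isomerases, chosen here after their values were seen, both parvulin genes were lowest in AM1061. The gene pinn-1 was at 12.3 FPKM (1.43 to 23.1) in hsf-1(ok600), 4.04 (0 to 7.96) in AM1061 and 22.9 (3.06 to 42.5) in N2, and pinn-4 was at 61.3 (11.9 to 106.4) in hsf-1(ok600), 38.2 (5.12 to 71.2) in AM1061 and 104.5 (22.1 to 181.8) in N2. The cyclophilin genes cyn-16 and sig-7 were highest in AM1061, cyn-16 at 10.6 FPKM in hsf-1(ok600), 25.3 in AM1061 and 8.55 in N2, and sig-7 at 13 in hsf-1(ok600), 27.7 in AM1061 and 11.5 in N2. The intervals of these 4 genes overlapped in AM1061 against N2. Over all genes past the FPKM minimum, intervals were apart there in 0.143% (lower in AM1061) and 0.564% (higher). The FKBP gene fkb-4 had a log2 difference of hsf-1(ok600) minus N2 of 1.40, with 47.1 FPKM (15.2 to 79) in hsf-1(ok600), 22.2 (4.88 to 39.4) in AM1061 and 17.3 (3.72 to 30.7) in N2 and q = 0.0514 (the authors' deposited table).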
